A study of Mus musculus with 23 samples.

Results

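Bone morphogenetic protein (BMP) signalling was followed through 10 genes in the colon of HFD-fed Cdx2Apc f/w mice colonized with BF BSHlow or BF BSHhigh. They are the 4 ligands Bmp2, Bmp3, Bmp4 and Bmp7, the 2 secreted antagonists Grem1 and Nog, the 2 targets Id1 and Id3, and the 2 inhibitory Smads Smad6 and Smad7. The genes were taken by symbol as a set of known pathway members, and all 10 were present among the 55449 genes of the count table. No measured value entered that choice, although earlier results of these data were known when it was made.

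BMP ligands bind paired type I and type II receptors, which phosphorylate SMAD1, SMAD5 and SMAD9 so that they enter the nucleus with SMAD4 and raise targets such as the Id genes and the inhibitory Smads. In the colon the signal is strongest near the surface epithelium and restrains stem cells. Subepithelial and smooth muscle cells around the crypt base secrete GREM1 and NOG, which capture the ligands and keep the stem cell niche low in BMP activity.

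All mice were male, on a C57BL/6 background, carried 1 floxed and 1 wild-type Apc allele with Cre under the Cdx2 promoter, and were given a diet with 60% fat from an age of 6 to 8 weeks. Apc is therefore deleted in cells that express Cdx2, in every group and in the controls too. According to the methods, antibiotics in the water preceded colonization. BF BSHlow is B. fragilis 638R, which the methods describe as carrying an empty vector, and BF BSHhigh is that strain overexpressing a bsh gene, whose enzyme deconjugates bile salts. After 12 weeks of colonization there were 4 BF BSHlow and 4 BF BSHhigh libraries of non-tumor colon, 4 libraries of BF BSHlow tumors and 3 of BF BSHhigh tumors. Normal colon after 2 weeks gave 4 libraries for each strain. The labels do not say that each library is a separate mouse, so p-values measure only the spread between these samples.

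Total expected counts were between 12401388 and 17903008 per library, and values below are CPM, the counts of a gene relative to the size of its library after TMM scaling over the 23 libraries. A gene passed a comparison when its p from edgeR (quasi-likelihood), adjusted by Benjamini-Hochberg over all genes in that fit, was under 0.05. The headers of the 3 columns used for BF BSHhigh tumors repeat the names of 3 BF BSHlow tumors. They were taken as BF BSHhigh because a supplementary table lists the same values under that group, and since no header ties them to single samples they are called a, b and c. The summed level of 5 WNT-activated markers was between 659 and 1446 CPM in tumors and between 29.3 and 56.3 CPM in the other libraries, so the tumor label and the profile go together. Apc itself was between 8.74 and 28.6 CPM in tumors and between 67.4 and 190 CPM elsewhere, as a count over the whole gene that does not separate the deleted stretch.

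Cell makeup differed between the 3 tissues, which bears on every level below. In bulk tissue, fewer cells of a type and less RNA per cell cannot be told apart. The 5 smooth muscle markers summed to between 4.81 and 133 CPM in normal colon at 2 weeks, between 1097 and 6675 CPM in non-tumor colon at 12 weeks and between 95.9 and 260 CPM in tumors, with none of the 5 at 0 throughout a group. The 5 fibroblast markers summed to between 25.5 and 107, between 201 and 1600, and between 842 and 2167 CPM. Differentiated colonocyte markers, also 5, went the other way, with sums between 12540.5 and 25177 CPM at 2 weeks, between 1282 and 3219 CPM in non-tumor colon and between 53.9 and 666 CPM in tumors. Much of that sum at 2 weeks was Car1, with a median of 12308 CPM against 154 CPM in non-tumor colon, while Slc26a3 (medians of 437 and 504 CPM) and Aqp8 (207 and 228 CPM) were not lower at 12 weeks. Endothelial markers, of which there were 4, summed to between 5.85 and 49.4, between 40.2 and 89.1, and between 122 and 146 CPM, and leukocyte markers, also 4, to between 20.2 and 72, between 25.7 and 233, and between 24 and 75.5 CPM. The 5 markers of enteric neurons and glia were between 0.308 and 2.06 CPM in tumors, where 2 of them were at 0 in all BF BSHlow tumors and 1 in all BF BSHhigh tumors. The 6 markers of epithelium summed to between 10431 and 14321, between 7097.5 and 9480, and between 3633 and 6351 CPM. These ranges did not overlap and were lowest in tumors. Against non-tumor colon, 1 of the 6 passed higher and 5 lower in BF BSHlow tumors, and 1 higher and 3 lower in BF BSHhigh tumors. Cdx2, whose promoter was used for the Cre transgene, was between 307 and 418 CPM at 2 weeks. It was between 6.34 and 60.5 CPM in non-tumor colon and between 0.256 and 27.6 CPM in tumors. The part of these shifts in the BMP results was not tested.

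**Figure D1:**
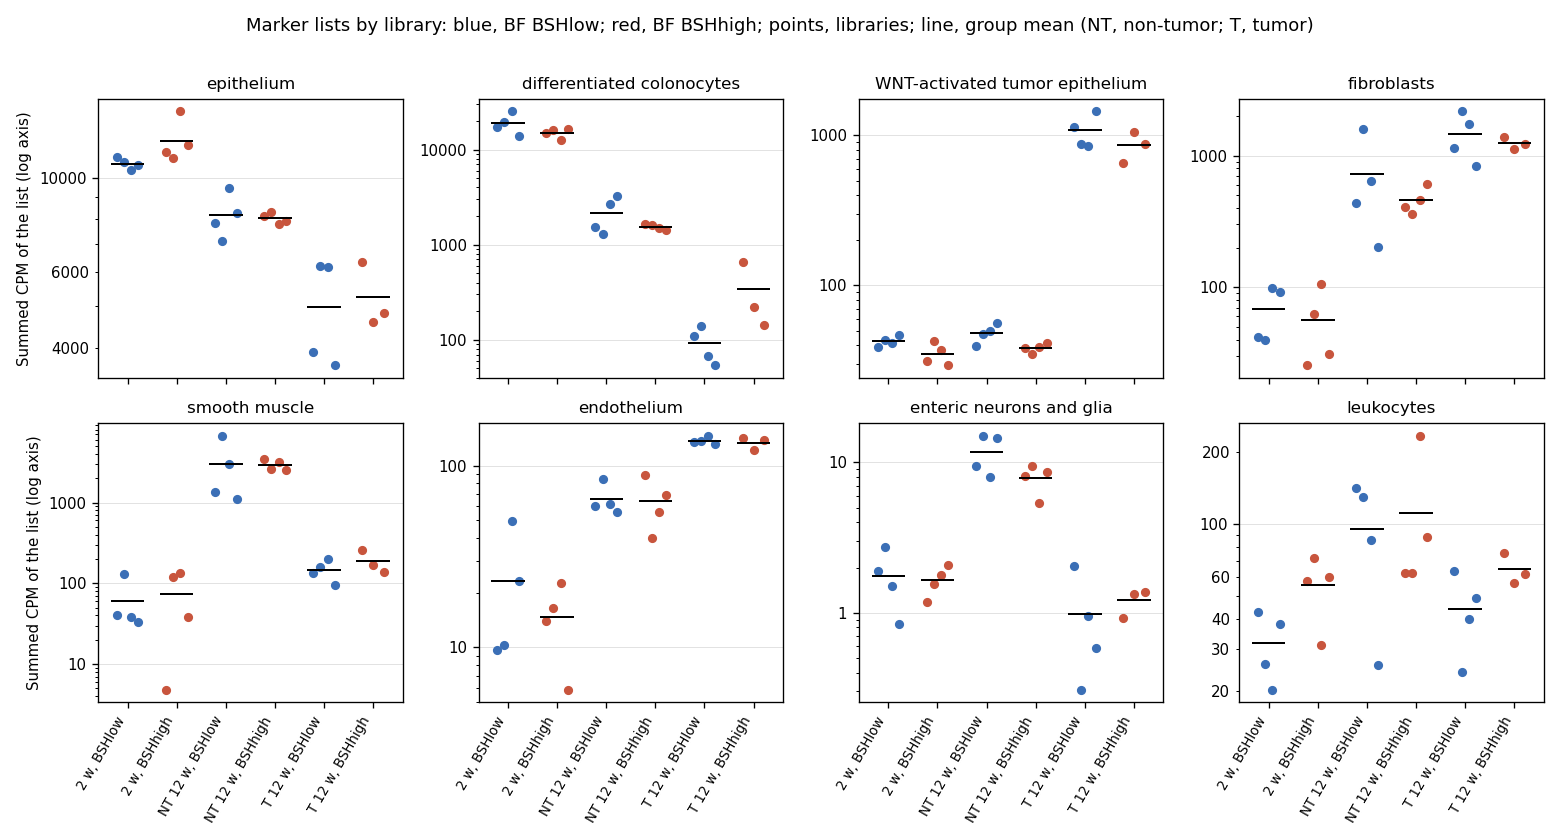
Summed CPM (log axis) of each cell type marker list by library in the 6 groups, with the group mean as a line. Smooth muscle markers were highest in the 8 non-tumor libraries of 12 weeks, between 1097 and 6675 CPM, and differentiated colonocyte markers in the 8 libraries of 2 weeks, at 12540.5 CPM or more.

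RefSeq promoter sequences (GRCm38.p6) were at hand for 4 of the 10 genes, Bmp4, Grem1, Id3 and Smad6. The 250 bases before the start are printed for Bmp4 and Smad6, which both rose in tumors of both strains, and for Grem1, which rose between 2 and 12 weeks but did not pass between tumor and non-tumor tissue. The window of Id3, at chr4:136143572-136143821 on the plus strand, overlaps an exon annotated for Id3 itself and is not printed. Each is written 5′ to 3′ on the strand of the gene, which is the minus strand for all 3, at chr14:46390670-46390919 for Bmp4, chr9:64022060-64022309 for Smad6 and chr2:113758649-113758898 for Grem1. Capitals mark matches on either strand to GGCGCC, a GC-rich element that BMP Smads bind, to CAGAC, the Smad box, and to CTTTGA, the core of the TCF motif.
Bmp4 promoter: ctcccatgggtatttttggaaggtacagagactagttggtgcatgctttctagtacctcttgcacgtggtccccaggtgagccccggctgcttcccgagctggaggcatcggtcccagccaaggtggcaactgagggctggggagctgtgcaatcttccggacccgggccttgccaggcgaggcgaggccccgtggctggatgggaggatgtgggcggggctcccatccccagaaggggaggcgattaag
Smad6 promoter: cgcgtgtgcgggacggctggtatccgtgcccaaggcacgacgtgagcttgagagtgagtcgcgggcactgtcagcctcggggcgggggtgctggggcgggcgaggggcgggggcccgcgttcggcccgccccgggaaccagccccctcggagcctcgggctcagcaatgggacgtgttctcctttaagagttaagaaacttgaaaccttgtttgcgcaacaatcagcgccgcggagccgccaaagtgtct
Grem1 promoter: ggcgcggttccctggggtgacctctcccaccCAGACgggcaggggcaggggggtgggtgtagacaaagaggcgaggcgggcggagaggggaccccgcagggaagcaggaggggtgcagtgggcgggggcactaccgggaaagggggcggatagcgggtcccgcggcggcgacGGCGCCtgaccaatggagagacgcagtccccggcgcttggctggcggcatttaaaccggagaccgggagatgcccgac
The Grem1 window held 1 GGCGCC and 1 CAGAC, the Id3 window held 2 CAGAC, and no match to these letters lay in the Bmp4 and Smad6 windows. Of 32851 promoter windows of the same length, 9.59% held GGCGCC, 42.2% held CAGAC and 13.8% held CTTTGA. A match is a description of the letters only.

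Of the ligands, Bmp7 and Bmp4 rose in tumors of both strains while Bmp2 and Bmp3 fell. With the targets and inhibitory Smads, 6 of the 10 genes rose and 2 fell between non-tumor and tumor tissue, in BF BSHlow as in BF BSHhigh, and these were the same 8 genes. Grem1 and Nog did not pass in either strain. Over all 16455 genes tested, 65.5% passed in BF BSHlow (33.3% higher and 32.2% lower in tumors) and 56.6% in BF BSHhigh (29.4% higher and 27.2% lower), so that passing is common in this comparison and the size of each change carries more than the count. The median log2 fold change of the 10 genes was 0.725 in BF BSHlow and 0.559 in BF BSHhigh, beside 0.0377 and 0.0406 over all genes. The 8 genes did not overlap between tumors and non-tumor colon of their strain, and of 16754 genes compared 28.8% were higher and 27.5% lower without overlap in BF BSHlow, and 31.6% and 28.8% in BF BSHhigh. When libraries were scaled by their total counts in place of TMM, the median of all genes moved up by 0.333 and 0.304. The share of passing genes that were higher went from 50.9% to 67.0% in BF BSHlow and from 51.9% to 70.5% in BF BSHhigh, and none of the 8 passing BMP genes changed direction. Grem1 in BF BSHhigh and Nog in both strains, which did not pass, did change sign.

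**Figure D2:**
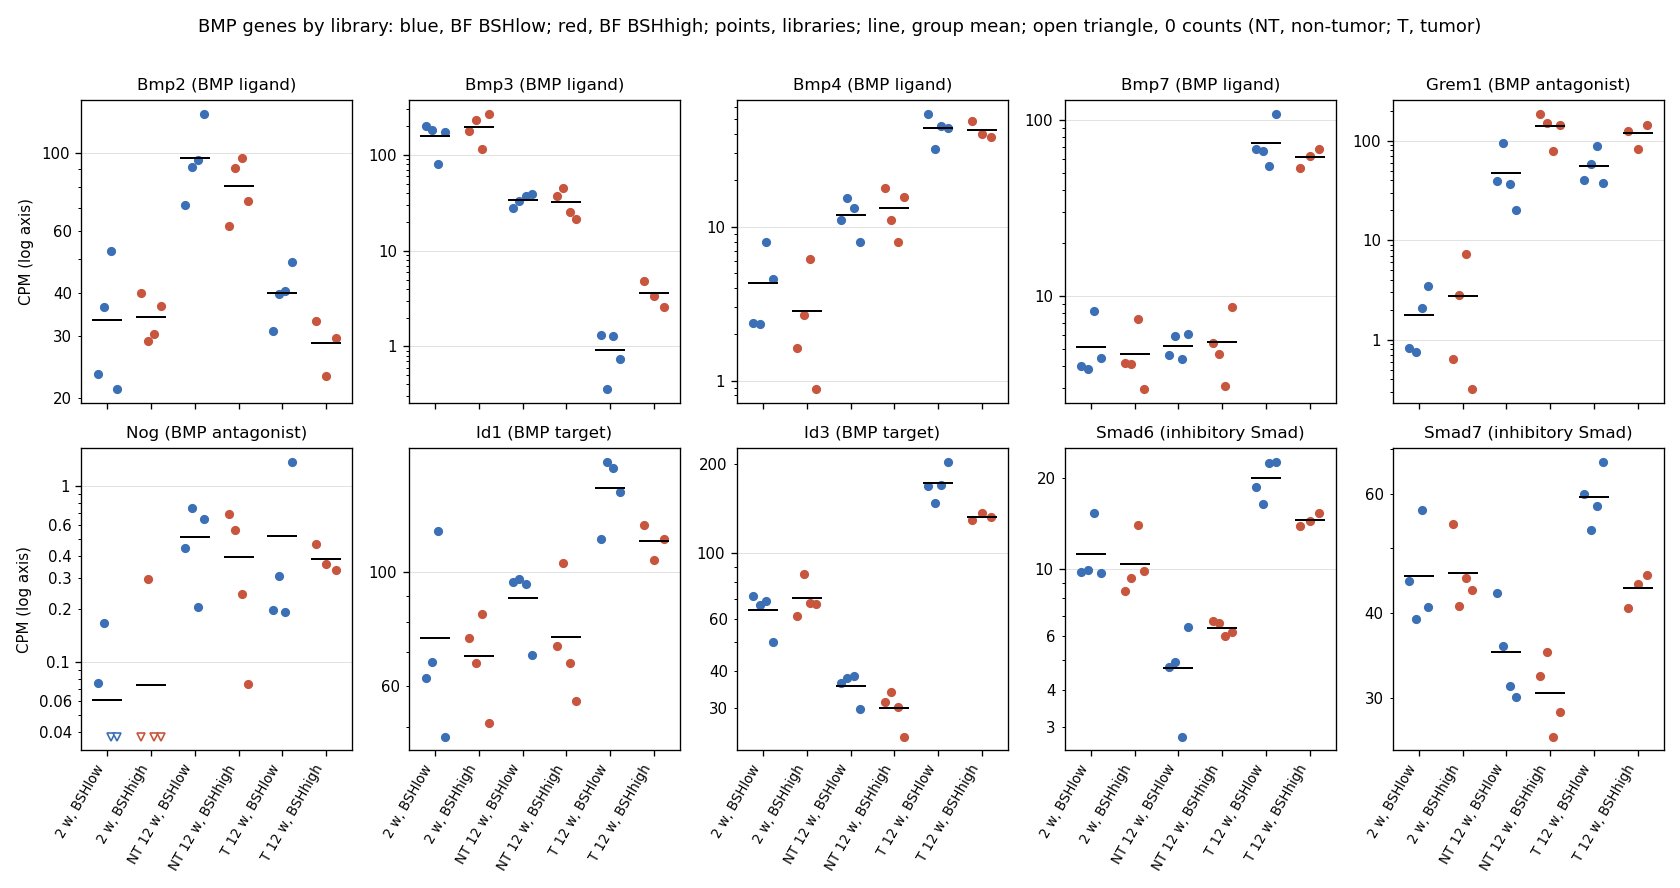
CPM (log axis) of each of the 10 genes by library in the 6 groups, with the group mean as a line and open triangles for libraries with 0 counts. Bmp7 was above 50 CPM in all 7 tumor libraries and under 10 CPM in all others, and Bmp3 was under 5 CPM in tumors only.

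Bmp7 (ENSMUSG00000008999.7, GRCm38 chr2:172868012-172940321, minus strand), an epithelial and mesenchymal ligand, had the largest rise among the 10 genes in both strains. It was at 4.59, 5.9, 4.36 and 6.06 CPM in BF BSHlow non-tumor colon and at 68.5, 66.7, 54.6 and 108 CPM in the tumors. With BF BSHhigh the levels were 5.43, 4.67, 3.09 and 8.68 CPM in non-tumor colon and 53.1, 62.5 and 68.3 CPM in tumors. All tumors lay above all non-tumor libraries, the lowest tumor being at 53.1 CPM and the highest non-tumor library at 8.68 CPM. The log2 fold change was 3.81 ± 0.28 SE, adjusted p = 7.63e-08 in BF BSHlow, or 14.1-fold, and 3.49 ± 0.29 SE, adjusted p = 6.72e-07 in BF BSHhigh, or 11.2-fold. At 2 weeks Bmp7 was at 4.02, 3.83, 8.24 and 4.43 CPM (BF BSHlow) and 4.18, 4.12, 7.42 and 2.96 CPM (BF BSHhigh), a range that overlaps that of non-tumor colon at 12 weeks. That difference over time did not pass, with a log2 fold change of 0.13 ± 0.24 SE, adjusted p = 0.663 for 12 against 2 weeks.

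Bmp4 (ENSMUSG00000021835.15, chr14:46383520-46390669, minus strand), made mainly by mesenchymal cells under the epithelium, followed the same order at a smaller size. Its exons overlap those of Gm15217, but the expected counts of Bmp4 were whole in all 23 libraries. Non-tumor colon had 11.1, 15.3, 13.2 and 7.93 CPM in BF BSHlow and 17.9, 11.1, 8.00 and 15.6 CPM in BF BSHhigh. Tumors had 54, 32.2, 44.9 and 43.8 CPM in BF BSHlow and 48.4, 40.0 and 38.4 CPM in BF BSHhigh. The groups did not overlap in either strain. Bmp4 rose in tumors by a log2 fold change of 1.87 ± 0.24 SE, adjusted p = 1.28e-05, in BF BSHlow and of 1.68 ± 0.26 SE, adjusted p = 8.39e-05, in BF BSHhigh. Normal colon at 2 weeks was lower still, at 2.35, 2.33, 7.96 and 4.57 CPM and 1.63, 2.65, 6.16 and 0.881 CPM for BF BSHlow and BF BSHhigh. Of the 8 non-tumor libraries of 12 weeks, 7 were above all 8 of the 2-week libraries, and Bmp4 rose with time by 1.83 ± 0.35 SE, adjusted p = 0.000282. All 5 fibroblast markers rose with time, and in tumors 2 rose and 1 (Lum) fell in BF BSHlow, and 3 rose and Lum fell in BF BSHhigh. Their part in the rise of Bmp4 was not tested.

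Bmp2 (ENSMUSG00000027358.6, chr2:133552159-133562885, plus strand), a ligand of the upper crypt and surface, was highest in non-tumor colon at 12 weeks. Its levels there were 71.1, 91.4, 95.5 and 129 CPM with BF BSHlow and 62.1, 90.7, 97.1 and 73 CPM with BF BSHhigh. In tumors they were 31.1, 39.6, 40.4 and 48.9 CPM and 33.3, 23.2 and 29.6 CPM. Every tumor was below every non-tumor library of its strain, and Bmp2 fell by 2.46-fold in BF BSHlow (log2 -1.30 ± 0.20 SE, adjusted p = 6e-05) and by 2.83-fold in BF BSHhigh (log2 -1.50 ± 0.22 SE, adjusted p = 7.07e-05). Normal colon at 2 weeks, with 23.4, 36.5, 52.5 and 21.2 CPM in BF BSHlow and 40.0, 29.1, 30.6 and 36.5 CPM in BF BSHhigh, overlapped the tumors. All 8 non-tumor libraries of 12 weeks were above all 8 of 2 weeks, and Bmp2 rose with time by a log2 fold change of 1.40 ± 0.18 SE, adjusted p = 8.21e-06.

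Bmp3 (ENSMUSG00000029335.5, chr5:98854415-98884396, plus strand), a member of the family that opposes rather than activates the SMAD1/5/9 branch, had the largest fall among the 10 genes. It went from 27.7, 33.1, 37.1 and 39.1 CPM in BF BSHlow non-tumor colon to 1.32, 0.359, 1.29 and 0.733 CPM in BF BSHlow tumors. The lowest of these rests on 7 counts. With BF BSHhigh it went from 37.6, 45.5, 25.6 and 21.5 CPM to 4.86, 3.39 and 2.57 CPM. Neither pair of groups overlapped, and the fall was 36.9-fold in BF BSHlow (log2 -5.21 ± 0.36 SE, adjusted p = 4.52e-08) and 9.08-fold in BF BSHhigh (log2 -3.18 ± 0.35 SE, adjusted p = 6.14e-06). Normal colon at 2 weeks held 200.2, 182, 81.5 and 173 CPM in BF BSHlow and 178, 232, 117 and 269 CPM in BF BSHhigh, above every library of 12 weeks. Bmp3 fell with time by 5.32-fold (log2 -2.41 ± 0.22 SE, adjusted p = 1.81e-07). Of the 5 differentiated colonocyte markers 3 fell with time, as did 5 in BF BSHlow tumors and 4 in BF BSHhigh tumors, and their part in the fall of Bmp3 was not tested.

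Per length, the leading one of the 4 ligands was a different one in each tissue. CPM per kilobase of exon (RPKM) puts genes of different length on 1 scale. The sum of the 4 ligands was 34.1 ± 2.61 RPKM (SD, n = 4) at 2 weeks with BF BSHlow and 38.9 ± 7.92 (n = 4) with BF BSHhigh. In non-tumor colon it was 38.5 ± 6.90 (n = 4) and 34.3 ± 2.68 (n = 4), and in tumors 49.4 ± 7.95 (n = 4) and 42.6 ± 2.23 (n = 3). This sum includes Bmp3, which opposes the SMAD1/5/9 branch, so it does not measure activating ligand. From 2 weeks to non-tumor colon, mean Bmp3 went from 21.5 and 26.9 to 4.63 and 4.4 RPKM. Bmp2 went from 9.4 and 9.57 to 27.2 and 22.7, and Bmp4 from 1.91 and 1.26 to 5.29 and 5.85. Bmp7 went from 1.28 and 1.16 to 1.3 and 1.36 RPKM. In BF BSHlow the sum overlapped between non-tumor colon (29.8 to 46.7 RPKM) and tumors (42.1 to 60.2), and in BF BSHhigh it did not (31.9 to 37.8 and 40.3 to 44.8). Bmp3 made 62.4% ± 18.6 (SD, n = 4) and 67.7% ± 10.1 (n = 4) of the sum at 2 weeks and was the highest ligand in 7 of 8 libraries, Bmp2 leading in 1 BF BSHlow library. Bmp2 made 70.2% ± 5.22 and 65.8% ± 9.59 (n = 4 each) in non-tumor colon and led in all 8. In tumors Bmp4 made 39.7% ± 7.69 (n = 4) and 44.1% ± 4.10 (n = 3) and Bmp7 37.1% ± 6.34 (n = 4) and 35.9% ± 5.61 (n = 3), with Bmp4 leading in 5 of 7 tumors and Bmp7 in 2. Bmp3 was down to 0.256% ± 0.136 (n = 4) and 1.14% ± 0.327 (n = 3) of the sum there. Bmp5, a ligand outside the 10 genes, is in none of these sums and shares. It was between 34.4 and 76.6 CPM in tumors over 4025 bases of exon, beside 53.1 to 108 CPM over 4019 bases for Bmp7.

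**Figure D3:**
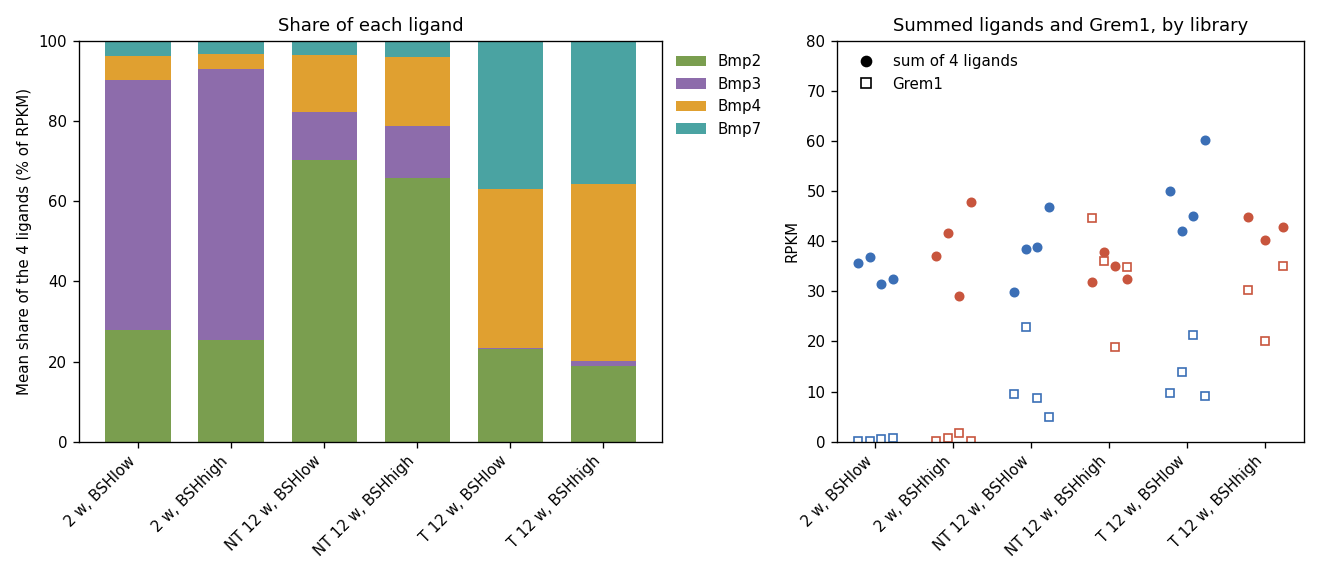
Left, mean share of each of the 4 ligands in their summed RPKM in the 6 groups (percent). Right, summed RPKM of the 4 ligands (filled circles) and RPKM of Grem1 (open squares) in each library, BF BSHlow in blue and BF BSHhigh in red. Among these 4, Bmp3 leads at 2 weeks, Bmp2 in non-tumor colon and Bmp4 with Bmp7 in tumors, and Grem1 is under 2 RPKM at 2 weeks.

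Grem1 (ENSMUSG00000074934.3, chr2:113746164-113758646, minus strand), the antagonist of muscle and pericryptal cells, passed with time and did not pass between tumor and non-tumor tissue. At 2 weeks it was at 0.834, 0.75, 2.08 and 3.45 CPM in BF BSHlow and 0.636, 2.8, 7.27 and 0.32 CPM in BF BSHhigh. In non-tumor colon of 12 weeks it was at 39.1, 95, 36.6 and 20.3 CPM and 185, 149.5, 78.3 and 145 CPM. The highest 2-week library, at 7.27 CPM, lay under the lowest of 12 weeks, at 20.3 CPM, and Grem1 rose by 35.9-fold (log2 5.17 ± 0.49 SE, adjusted p = 3.4e-07), the largest change with time among the 10 genes. Tumors had 40.5, 57.9, 88.2 and 37.5 CPM in BF BSHlow and 126, 83.1 and 145 CPM in BF BSHhigh, within the range of non-tumor colon of the same strain. The log2 fold change for tumors was 0.22 ± 0.41 SE, adjusted p = 0.65, in BF BSHlow and -0.25 ± 0.43 SE, adjusted p = 0.652, in BF BSHhigh. The summed smooth muscle markers were higher at 12 weeks in the same libraries as Grem1 and lower again in tumors, and their part in the level of Grem1 was not tested. The ratio of Grem1 to the summed ligands, both in RPKM, was 0.0130 ± 0.00979 (SD, n = 4) and 0.0206 ± 0.0273 (n = 4) at 2 weeks for BF BSHlow and BF BSHhigh. It was 0.311 ± 0.209 (n = 4) and 0.992 ± 0.356 (n = 4) in non-tumor colon, and 0.287 ± 0.145 (n = 4) and 0.664 ± 0.161 (n = 3) in tumors. The summed ligands include Bmp3, on average 62.4% and 67.7% of them at 2 weeks, so this is not a ratio to activating ligands.

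Nog (ENSMUSG00000048616.4, chr11:89300638-89302332, minus strand), the antagonist noggin, was near the limit of detection. It had 0 counts in 5 of the 8 libraries of 2 weeks, which allows up to 3 counts or between 0.211 and 0.284 CPM (counting error only), and at most 0.294 CPM in the other 3. Non-tumor colon had 0.445, 0.744, 0.204 and 0.645 CPM with BF BSHlow and 0.687, 0.56, 0.242 and 0.0748 CPM with BF BSHhigh, and tumors had 0.196, 0.308, 0.191 and 1.37 CPM and 0.465, 0.357 and 0.334 CPM. Tumors and non-tumor colon overlapped, and no difference was detectable at this depth, with adjusted p = 0.993 in BF BSHlow and 0.963 in BF BSHhigh from edgeR. Nog did not pass the filter on low counts in the other comparisons.

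Id3 (ENSMUSG00000007872.3, chr4:136143497-136145755, plus strand) and Id1 (ENSMUSG00000042745.9, chr2:152736251-152737410, plus strand) encode inhibitors of differentiation and are direct SMAD1/5 targets. Id3 was at 36.5, 37.8, 38.6 and 29.9 CPM in BF BSHlow non-tumor colon and at 169, 148, 169.6 and 204 CPM in BF BSHlow tumors. With BF BSHhigh it was at 31.4, 34.1, 30.2 and 24 CPM and 129.6, 137 and 133 CPM. The groups lay far apart, the lowest tumor at 130 CPM and the highest non-tumor library at 38.6 CPM, and Id3 rose by 4.8-fold in BF BSHlow (log2 2.26 ± 0.12 SE, adjusted p = 1.15e-08) and 4.42-fold in BF BSHhigh (log2 2.14 ± 0.13 SE, adjusted p = 7.01e-08). Normal colon at 2 weeks lay between, at 71.6, 66.7, 68.9 and 50.3 CPM in BF BSHlow and 61.7, 84.9, 67.8 and 67.4 CPM in BF BSHhigh. Id3 fell from there to non-tumor colon by 2.06-fold (log2 -1.04 ± 0.10 SE, adjusted p = 2.36e-07), without overlap.

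Id1 moved less. Its levels were 95.7, 97, 94.9 and 69 CPM in BF BSHlow non-tumor colon, 116, 164, 160.0 and 143 CPM in BF BSHlow tumors, 71.8, 104, 66.6 and 56.2 CPM in BF BSHhigh non-tumor colon and 123, 106 and 116 CPM in BF BSHhigh tumors. Tumors were above non-tumor colon of their strain without overlap, by 1.62-fold (log2 0.70 ± 0.17 SE, adjusted p = 0.00219) and 1.53-fold (log2 0.61 ± 0.18 SE, adjusted p = 0.00972), although the lowest BF BSHhigh tumor was at 106 CPM and the highest non-tumor library of that strain at 104 CPM. At 2 weeks Id1 had 62.2, 66.8, 120.5 and 47.8 CPM in BF BSHlow and 74.5, 66.7, 83.1 and 50.9 CPM in BF BSHhigh, and the difference over time did not pass (log2 0.19 ± 0.18 SE, adjusted p = 0.36). It passed without replicate 3 of BF BSHlow at 2 weeks, at 0.36 (adjusted p = 0.0394), and with total library scaling, at 0.46 (adjusted p = 0.0333), both from edgeR. Per length, Id1 was the most abundant of the 10 genes in all 6 groups, between 59.3 RPKM on average at 2 weeks with BF BSHhigh and 126 RPKM in BF BSHlow tumors.

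Smad6 (ENSMUSG00000036867.7, chr9:63953076-64022059, minus strand) and Smad7 (ENSMUSG00000025880.11, chr18:75367529-75395935, plus strand) are induced by the pathway and block it, SMAD6 mainly the BMP branch and SMAD7 that of TGF-β as well. Smad6 was at 4.74, 4.92, 2.79 and 6.45 CPM and 18.6, 16.4, 22.4 and 22.6 CPM in non-tumor colon and tumors with BF BSHlow. With BF BSHhigh it was at 6.75, 6.66, 6.00 and 6.21 CPM and 13.9, 14.4 and 15.3 CPM. All tumors were above all non-tumor libraries, and the rise was 4.17-fold in BF BSHlow (log2 2.06 ± 0.20 SE, adjusted p = 9.04e-07) and 2.26-fold in BF BSHhigh (log2 1.18 ± 0.21 SE, adjusted p = 0.000316). At 2 weeks Smad6 had 9.78, 9.92, 15.3 and 9.7 CPM in BF BSHlow and 8.44, 9.35, 14 and 9.85 CPM in BF BSHhigh. It fell with time by 1.96-fold (log2 -0.97 ± 0.17 SE, adjusted p = 0.000111), without overlap.

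Smad7 was at 42.9, 35.8, 31.3 and 30.1 CPM in BF BSHlow non-tumor colon and 60.1, 53.1, 57.7 and 67.1 CPM in BF BSHlow tumors, and at 32.4, 35, 26.3 and 28.6 CPM and 40.7, 44.3 and 45.7 CPM with BF BSHhigh. The groups did not overlap within a strain. Smad7 rose in tumors by 1.68-fold (log2 0.75 ± 0.12 SE, adjusted p = 7.88e-05) and 1.42-fold (log2 0.50 ± 0.13 SE, adjusted p = 0.00424). At 2 weeks it was at 44.7, 39.3, 56.9 and 40.9 CPM and 54.3, 41.1, 45.2 and 43.3 CPM, and 7 of the 8 non-tumor libraries of 12 weeks were below all 8 of these. Its fall with time was 1.4-fold (log2 -0.48 ± 0.10 SE, adjusted p = 0.000638), and with total library scaling it did not pass (log2 fold change -0.22, adjusted p = 0.0697 from edgeR).

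**Figure D4:**
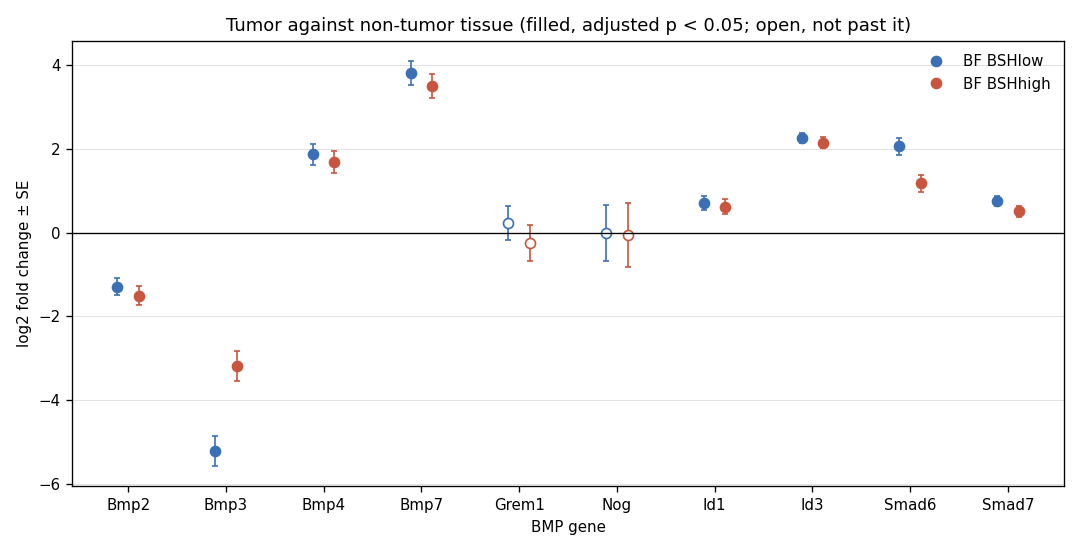
Log2 fold change (vertical axis, with SE bars) of tumor against non-tumor tissue for the 10 genes, with BF BSHlow in blue and BF BSHhigh in red, filled where the adjusted p was under 0.05. Id1, Id3, Smad6, Smad7, Bmp4 and Bmp7 are above 0 and Bmp2 and Bmp3 below it in both strains, while Grem1 and Nog are open.

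With time, 3 of the 9 tested genes rose (Bmp2, Bmp4 and Grem1) and 4 fell (Bmp3, Id3, Smad6 and Smad7), beside 33.0% and 30.2% of the 15533 genes tested, 63.1% in all. Of the 10 genes 2 were higher (Bmp2 and Grem1) and 3 lower (Bmp3, Id3 and Smad6) without overlap, beside 13.8% and 10.2% of 16754 genes. The median of the 9 genes was 0.125, and that of all genes 0.00971, on the log2 scale. Total library scaling moved the latter up by 0.258 and the share of passing genes that were higher from 52.2% to 75.7%. Age, length of diet and colonization, and the cell makeup given above differ between these groups and cannot be told apart. The methods do not say which part or layers of the colon were taken, nor the batch of each library. These too cannot be told apart from time, so rises and falls with time name the comparison and not a cause.

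The strains were next compared within each tissue, which asks whether bsh overexpression went with a different BMP profile. None of the 9 tested genes passed in tumors, where 0.509% of the 15325 genes did (edgeR), 0.47% higher and 0.0392% lower with BF BSHhigh. At an unadjusted p under 0.05 there were 7 of them, 2 higher and 5 lower with BF BSHhigh, beside 1302 higher and 644 lower of all 15325 genes. DESeq2 called 3 (Bmp3 and Grem1 higher, Smad7 lower) while limma-voom called 0. Bmp3 had the largest difference, with all 3 BF BSHhigh tumors above all 4 BF BSHlow tumors, at a log2 fold change of 1.94 ± 0.47 SE, adjusted p = 0.114 from edgeR. It is a difference between means of 3.61 ± 1.16 CPM (SD, n = 3) and 0.926 ± 0.465 CPM (n = 4), both low against 34.3 ± 5.03 and 32.5 ± 11 CPM (n = 4 each) in non-tumor colon. In a fit of all 23 libraries it passed (adjusted p = 0.00951 from edgeR). Differentiated colonocyte markers were also higher in BF BSHhigh tumors, with sums of 666, 222 and 143 CPM in tumors a, b and c against 110, 140, 68.1 and 53.9 CPM in the 4 BF BSHlow tumors. Of these 5 markers 2 passed, the ion exchanger Slc26a3 (6.25 ± 0.98 SE, adjusted p = 0.0481) and the water channel Aqp8 (6.40 ± 0.92 SE, adjusted p = 0.0406). Over the 7 tumors Slc26a3 was between 0 and 39.1 CPM (median 0.49) and Aqp8 between 0 and 18.4 CPM (median 0.196). Both folds thus rest on levels near 0. The part of these markers in the difference of Bmp3 was not tested.

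Targets and inhibitory Smads were lower on average in BF BSHhigh tumors, and none of these differences passed. Smad7 (-0.46 ± 0.11 SE, adjusted p = 0.104), Smad6 (-0.47 ± 0.15 SE, adjusted p = 0.232) and Id3 (-0.39 ± 0.12 SE, adjusted p = 0.228) did not overlap between the strains, by edgeR. Id1 had -0.35 ± 0.13 SE, adjusted p = 0.289, with 2 of the 3 BF BSHhigh tumors below all BF BSHlow tumors. Of the 10 genes 1 was higher and 3 were lower without overlap, beside 8.52% and 3.63% of the 16754 genes compared. The median of the 9 tested genes was -0.352 and that of all genes -0.0286. Ligands other than Bmp3 overlapped, with adjusted p = 0.294 for Bmp2 (-0.49), 0.65 for Bmp7 (-0.30) and 0.913 for Bmp4 (-0.06) from edgeR. Id2, another Id gene outside the 10, did pass, at -0.62 ± 0.10 SE, adjusted p = 0.0481, with 61.4, 55.8 and 56.8 CPM in BF BSHhigh tumors and 76.7, 95.5, 94.7 and 86.8 CPM in BF BSHlow tumors. It did not pass in any of the 7 fits that left out 1 tumor, with adjusted p between 0.0657 and 0.151 from edgeR, nor with limma-voom (adjusted p = 0.059).

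Grem1 was higher on average with BF BSHhigh in both tissues of 12 weeks, and passed in neither by edgeR. In non-tumor colon 3 of 4 BF BSHhigh libraries were above all 4 of BF BSHlow, and the log2 fold change was 1.53 ± 0.45 SE, adjusted p = 0.404 from edgeR. In tumors 2 of 3 were above all 4, and it was 1.07 ± 0.31 SE, adjusted p = 0.192. The 2 comparisons share no library, but both tissues may come from the same mice, so they may not be independent. Fibroblast marker sums overlapped between the strains in both tissues, between 201 and 1600 CPM against 360 and 608 CPM in non-tumor colon and between 842 and 2167 CPM against 1131 and 1380 CPM in tumors. Smooth muscle sums overlapped too. They were between 1097 and 6675 CPM against 2523 and 3415 CPM in non-tumor colon, with the lowest in the BF BSHlow library of lowest Grem1. In tumors they were between 95.9 and 198 CPM against 137 and 260 CPM. The part of these markers was not tested. At 2 weeks Grem1 was at a few CPM in both strains (0.63 ± 0.83 SE, adjusted p = 0.934).

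In non-tumor colon 0 of the 9 tested genes passed, as did 0.0% of all 14934 genes (edgeR). At an unadjusted p under 0.05 there was 1 of the 9, Grem1, beside 792 higher and 586 lower of all genes, and DESeq2 and limma-voom called 0. The median of the 9 was -0.0784 and that of all genes -0.0142 on the log2 scale. Apart from Grem1, absolute log2 fold changes were at most 0.43, that of Smad6 (0.43 ± 0.24 SE, adjusted p = 0.647), which was opposite in sign to that in tumors. At 2 weeks 0 of 9 passed, beside 0.00727% of 13753 genes, with 0 also by DESeq2 and limma-voom and 0 at an unadjusted p under 0.05, where all genes had 527 higher and 408 lower. The largest differences there were in low genes, 0.63 ± 0.83 for Grem1 and -0.59 ± 0.58 for Bmp4 (log2 fold change ± SE).

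**Figure D5:**
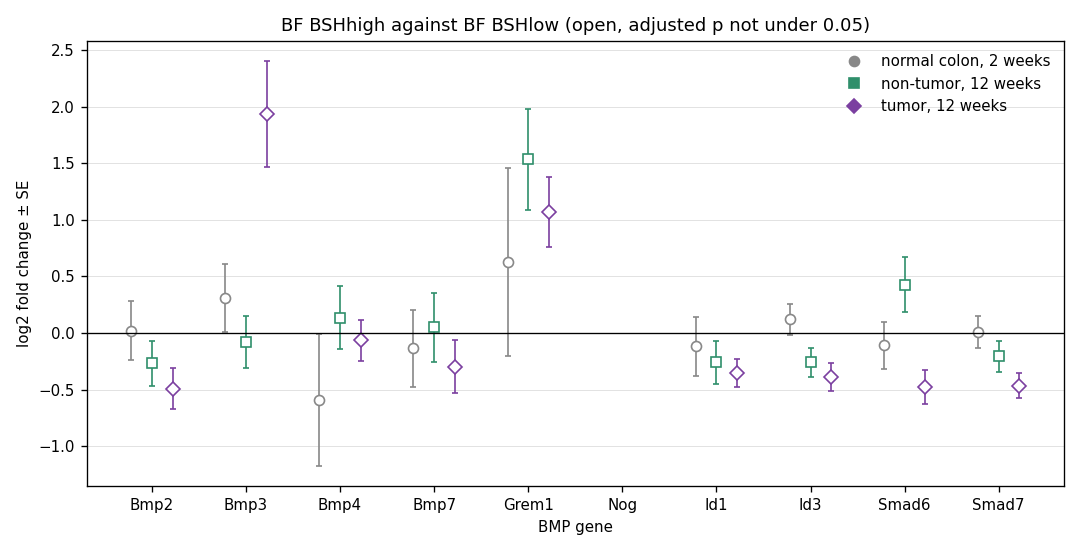
Log2 fold change (vertical axis, with SE bars) of BF BSHhigh against BF BSHlow for the 9 tested genes in normal colon at 2 weeks (circles), non-tumor colon (squares) and tumors (diamonds). All symbols are open, since no adjusted p was under 0.05, and Bmp3 in tumors and Grem1 at 12 weeks lie furthest above 0.

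Whether the tumor change itself differed between the strains was tested as an interaction. None of the 10 genes passed, while 0.991% of all 16455 did, 0.978% higher and 0.0122% lower, and 2 of the 10 had an unadjusted p under 0.05, beside 1211 higher and 369 lower of all genes. Bmp3, whose fall in tumors was smaller with BF BSHhigh, came closest at 2.02 ± 0.47 SE, adjusted p = 0.0619 from edgeR. It passed with DESeq2 (adjusted p = 0.0019), without a filter on low counts (adjusted p = 0.041) and without BF BSHhigh tumor c (2.23, adjusted p = 0.0271), both by edgeR, and not with limma-voom, and its adjusted p ranged from 0.0019 to 0.304 over all alternatives. Of the 5 differentiated colonocyte markers 3 passed the interaction by edgeR, all higher, and the median log2 fold change of the 5 was 3.4. As given above, the folds of Slc26a3 and Aqp8 in tumors rest on levels near 0. The part of these markers in the interaction of Bmp3 was not tested. Smad6, whose rise was smaller with BF BSHhigh, had -0.88 ± 0.29 SE, adjusted p = 0.252.

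The rest of the pathway was described with 48 further BMP genes, of which 47 were in the table and 37 were tested between tumor and non-tumor tissue. In both strains 19 rose and 11 fell, where 65.5% and 56.6% of all genes passed, and the median log2 fold change was 0.673 in BF BSHlow and 0.448 in BF BSHhigh, beside 0.0377 and 0.0406 over all genes. The homeobox genes Msx1 (4.34 in BF BSHlow and 4.09 in BF BSHhigh, log2 fold change) and Dlx3 (6.09 and 5.51), the transcription factor Atoh8 (2.10 and 2.29) and Id2 (2.12 and 1.67) rose, while Id4 fell (-3.31 and -3.06), so that 4 of 6 tested targets rose in each strain. Hes1, better known as a Notch target, fell in BF BSHlow (-0.44 ± 0.17 SE, adjusted p = 0.0295) and did not pass in BF BSHhigh (-0.16 ± 0.18 SE, adjusted p = 0.461). Msx1 was between 3.62 and 7.26 CPM in tumors and at most 0.817 CPM in the other libraries. Dlx3 was between 3.54 and 29.7 CPM in tumors and at most 0.387 CPM in the other libraries. The folds of both thus rest on levels near 0 outside tumors.

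Antagonists and modulators split. Of 12 tested, 4 rose and 4 fell in BF BSHlow, and 5 rose and 5 fell in BF BSHhigh. The decoy receptor Bambi rose by 3.48 ± 0.23 SE, adjusted p = 3.46e-08, in BF BSHlow and 2.10 ± 0.23 SE, adjusted p = 6.04e-06, in BF BSHhigh. The activin antagonist Fst (3.63 and 3.33) and the BMP-binding Bmper (2.74 and 2.96) rose as well. The secreted antagonists Chrdl1 (-4.03 and -3.19) and Chrdl2 (-5.75 and -4.08) fell. Both rose between 2 and 12 weeks, by 4.03 and 6.43, as did the summed smooth muscle markers, whose part was not tested. Chrdl2 was at most 0.148 CPM at 2 weeks and 0.62 CPM in tumors, and between 0.727 and 10.1 CPM in non-tumor colon. Its folds thus rest on levels near 0.

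Of 10 further ligands 5 were tested. Bmp8b rose (3.12 and 4.48) and Bmp8a fell (-4.21 and -2.45), which are close copies whose reads the counting could split. Bmp5 rose (1.35 and 1.25), from between 14.3 and 26.2 CPM in non-tumor colon to between 34.4 and 76.6 CPM in tumors. Of 10 tested receptors and co-receptors 5 rose and 3 fell in each strain, with the co-receptor Eng highest (1.81 and 1.81) and Rgma lowest (-2.47 and -1.12). The summed endothelial markers given above were also higher in every tumor than in any other library, with 2 of the 4 passing in each strain, and their part in the rise of Eng, which endothelium expresses, was not tested. Among signal-carrying Smads, Smad4 fell (-1.05 ± 0.11 SE, adjusted p = 1.44e-06, and -0.81 ± 0.12 SE, adjusted p = 6.5e-05) and Smad5 and Smad9 rose in both strains. Smad4 was between 143 and 185 CPM in non-tumor colon and between 68.3 and 106 CPM in tumors. The tumors overlapped normal colon at 2 weeks, where Smad4 was between 59.8 and 87.7 CPM. In the neighbouring TGF-β branch 6 of 10 genes rose and 1 fell in each strain, among them Inhba, an activin subunit (5.31 and 4.37), which was between 72.8 and 276 CPM in tumors and at most 8.06 CPM elsewhere, and Inhbb, another activin subunit (3.81 and 3.64). Atoh8, Id2, Hes1, Bmp5, Eng and the Smads are not among the 12 genes of largest fold in this comparison and were named after their values were seen.

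Between 2 and 12 weeks 23 of 33 tested genes of the BMP lists rose and 7 fell, and 8 of 10 of the TGF-β branch rose, where 33.0% of all genes were higher and 30.2% lower. Chrdl2 and Chrdl1, given above, had the largest rises. The TGF-β ligands Tgfb2 (3.64) and Tgfb3 (3.43), Inhba (3.40), the follistatin-like Fstl1 (3.93) and the BMP antagonist Chrd (2.50) followed, on the log2 scale. The co-receptor Rgma (2.71) and the ligand Bmp6 (2.46) rose as well, while Bmp8b fell (-4.66). All 5 fibroblast markers also rose over that time, and their part in these changes was not tested. Between the strains in tumors, Id2 was the 1 gene of 35 tested in the BMP lists that passed.

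The genes most like each of the 10 were taken as the 2 with the smallest root mean square difference in centred log2 CPM over the 6 group means, among 16754 genes. They were Slc6a11 and Tnnt3 for Bmp2 (0.109 and 0.130), Ifit1bl2 and Aldh1a7 for Bmp3 (0.169 and 0.225), B430306N03Rik and Pappa for Bmp4 (0.111 and 0.135), and AC115119.1 and Gm48410 for Bmp7 (0.0808 and 0.0887). For Id3 they were Aifm3 and Lhpp (0.138 and 0.139), for Id1 Pip5k1a and Srsf9 (0.0360 and 0.0379), for Smad6 Wdr78 and Aoc2 (0.128 and 0.138), and for Nog Fkbp7 and Pdp2 (0.0710 and 0.0855). Grem1 had the least close neighbours, Trf and Apobec2 at 0.525 and 0.641, over a span of 6.38 log2 units between its group means. The means of Smad7 spanned under 1 log2 unit, and no neighbours were taken. These are likenesses of 6 means and carry no test.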

How the data were processed

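Colon RNA was sequenced in 23 libraries. The authors used cutadapt, STAR with mm10 and Picard for mapping statistics, and deposited expected counts per gene from RSEM, which are not normalized; versions are not given in the sources used here. The labels describe total RNA and the methods mRNA, both stranded, and the 2 sources differ on the gavage interval.

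Expected counts were rounded to whole numbers. Of all values 4.24% were not whole, and none of those of the 10 BMP genes. Identifiers matched GENCODE M21. The row of Fgf6 was not used, as it holds a value that is no number. Totals had a median of 15874872 counts, and a count of 0 allows up to 3. The headers of the 3 BF BSHhigh tumor columns repeat BF BSHlow tumor names, and the columns were assigned as a group, against those headers, with 1996 of 1996 rows of a supplementary table that lists them as BF BSHhigh equal within 1 count.

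Genes passing filterByExpr were fitted with edgeR 4.0.16 (R 4.3.3, TMM) and called at an adjusted p under 0.05. The tumor contrasts and their interaction shared 1 fit of the 15 libraries of 12 weeks, the strains were compared within each tissue, and the time contrast used 16 libraries. The scripts were checked on simulated counts. Alternatives were DESeq2 1.42.0, limma-voom 3.58.1, 3 other scalings, other filters, a fold limit, a fit of all 23 libraries, a block for replicate number and fits without each library in turn. The SE of an edgeR log2 fold change was derived as its absolute value divided by the square root of the quasi-likelihood F statistic. RPKM is CPM per kilobase of exon. The members and lists were chosen with earlier results of these data known. Named were all 10 members, up to 12 passing pathway genes of largest fold per comparison (others are marked, and 2 are not reported here) and the 2 genes most like each member.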

Additional observations from a re-analysis of the deposited data

Results flagged for a closer look

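Of 50 groups of 4 libraries tested for a library far from the others with Dixon's test on a log scale of CPM, 4 were found, where chance gives about 1 in 20. Bmp3 was lowest in replicate 3 of BF BSHlow at 2 weeks, at 81.5 CPM. Smad6 was highest in that same library, at 15.3 CPM. Id1 was lowest in replicate 4 of BF BSHlow non-tumor colon, at 69.0 CPM. Nog was highest in replicate 2 of BF BSHhigh at 2 weeks, at 0.294 CPM, which is 4 counts where the other 3 libraries had 0.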

How the results depend on the processing

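The same 8 BMP genes passed between tumor and non-tumor tissue in both strains by edgeR, DESeq2 and limma-voom. Of the values computed under alternatives, 1303 kept their direction and side of the threshold, 9 passed that had not (Bmp3, Grem1, Smad7 and Id1), 1 no longer passed (Smad7 with time, total library size) and 52 changed sign, all of the last in genes that did not pass. Of the 10 genes, the interaction passed for 1 with DESeq2, 1 without a filter and between 0 and 1 when 1 library was left out (1 without BF BSHhigh tumor c). Between strains in tumors 3 passed with DESeq2 and 1 in the fit of all 23 libraries. Nog, at most 1.37 CPM, is limited by depth.

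Counts over all genes moved more. Between strains in tumors 72 were higher and 6 lower, against 606 and 135 with DESeq2, 40 and 3 with limma-voom, 318 and 26 without a filter and 768 and 39 in the fit of 23 libraries. Leaving out 1 tumor gave between 0 (without BF BSHlow replicate 1, 3 or 4) and 243 higher and 11 lower (without BF BSHhigh tumor c). The interaction had 161 higher and 2 lower, against 399 and 21 with DESeq2, 0 with limma-voom and 267 and 6 in the fit of 23 libraries, and with 1 library left out from 87 and 1 (without BF BSHhigh non-tumor replicate 1) to 367 and 3 (without BF BSHhigh tumor c). In non-tumor colon 0 genes passed by edgeR (792 higher and 586 lower at an unadjusted p under 0.05), 133 higher and 36 lower by DESeq2 and 0 by limma-voom. At 2 weeks 1 was higher, against 43 and 11 by DESeq2 and 5 and 1 without a filter, 40 and 3 without BF BSHlow replicate 4, and 0 to 1 without any other library. The causes were not tested.

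Signs changed as follows, in log2 fold changes. Between tumor and non-tumor tissue Nog in BF BSHlow was 0.037 with upper-quartile scaling, 0.33 with total library size, 0.0051 without a filter and 0.0056 with 23 libraries, and in BF BSHhigh 0.26 with total library size and 0.22 with limma-voom. Grem1 in BF BSHhigh was 0.066 with total library size, and the interaction of Nog 0.61 with limma-voom. Between strains, Bmp7 in non-tumor colon was -0.066 with limma-voom. At 2 weeks Bmp2 was -0.039 and Smad7 -0.066 with total library size, and Smad7 -0.0048 with upper-quartile scaling.

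With 1 library left out, tumor against non-tumor tissue ranged from -0.10 to 0.79 for Grem1 and -1.16 to 0.25 for Nog in BF BSHlow, and -0.37 to 0.16 for Nog in BF BSHhigh. The interaction ranged from -0.36 to 1.09 for Nog and -0.20 to 0.12 for Id1. The strains differed by -0.18 to 0.066 for Bmp4 in tumors, and in non-tumor colon by -0.29 to 0.075 for Bmp3, -0.050 to 0.31 for Bmp4 and -0.26 to 0.24 for Bmp7. At 2 weeks they differed by -0.14 to 0.32 for Bmp2, -0.45 to 0.18 for Bmp7, -0.50 to 1.19 for Grem1, -0.28 to 0.21 for Id1, -0.28 to 0.079 for Smad6 and -0.084 to 0.14 for Smad7. The change of Bmp7 with time ranged from -0.028 to 0.28.

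Deviations of libraries of the same replicate number had correlations between -0.173 and 0.26 over all pairs of groups. Between BF BSHlow tumor and non-tumor tissue they were 0.158, -0.0834, 0.0177 and 0.106 for replicates 1 to 4. In that pair, non-tumor replicates 1 and 4 were most like the tumor of their own number. With 4 libraries per tissue, this cannot tell whether tissues of the same number came from 1 mouse. With the replicate number as a block, 4545 genes were higher and 4348 lower in BF BSHlow tumors, against 4791 and 4509 in the 8 libraries without it, a fit added after seeing the data. No call among the 10 genes changed under the block, and Bmp7 in non-tumor colon was -0.020. The headers of the BF BSHhigh tumor columns are BF BSHlow names, so their replicate numbers are not known and no block was possible there.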
